A study of Mus musculus with 6 samples.

Results

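Late dextran sulfate sodium (DSS) colitis was set against early DSS colitis in mice whose gut flora had been depleted. The comparison took 2 of the 6 single-cell libraries of the series, the one labelled pGF-DSS-7 and the one labelled pGF-DSS-2. Of 31304 barcodes in the series that showed 200 or more genes and no more than 10% of UMIs (unique molecular identifiers, one per captured RNA molecule) from mitochondrial genes, 14035 belonged to these libraries, 6547 at day 7 and 7488 at day 2. Both came from the colon of wild-type mice that had received antibiotics for 4 weeks. The pGF (pseudo germ-free) mice then had antibiotic together with DSS, for 2 days in one group and for 7 days in the other, so the antibiotic is shared by both sides. The labels do not give the animals' age or sex, or how many animals went into a library. An antibiotic course leaves a reduced flora and is not the same as rearing without microbes. The colon was freed of epithelium with EDTA, and digested cells were sorted for CD45, the surface phosphatase of all leukocytes, before 5′ gene expression libraries were made. Each day was 1 library, so no difference below has a replicate check, and each compares those libraries rather than the 2 time points.

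DSS is a sulfated polysaccharide that damages the colonic epithelium when given in drinking water, which lets luminal material reach the underlying tissue. In this model blood monocytes enter the lamina propria and mature there toward resident macrophages, neutrophils accumulate, and lymphocytes of the epithelium and lamina propria lie beside the injury. B cells in colonic follicles and IgA-secreting plasma cells form the antibody arm of the same tissue, and their numbers are known to depend on the flora.

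The libraries differed in depth and in epithelial carry-over. Day 2 held 52772901 UMIs in 9288 barcodes and day 7 held 23335071 in 7003, with medians of 3201 and 2440 UMIs per kept cell. The mitochondrial limit was exceeded by 19.3% of barcodes at day 2 and 6.41% at day 7. Transcripts of absorptive epithelial cells summed to between 38.4 and 832 CPM (UMIs per 1000000 UMIs of the class) in the 8 leukocyte classes at day 2, and to between 5.35 and 36.2 CPM at day 7. The libraries shared 83 barcode sequences, within the 5 to 131 shared over the 15 pairs of libraries. Of 4010 genes measured in all 9 classes described below, 9 were at least 1.5-fold higher at day 7 in 7 or more classes, and 9 were lower. AY036118, an unnamed transcript known to overlap a ribosomal RNA repeat, was 2.77 to 7.11-fold higher in 9 of 9. The other 8 that were higher were Gm42418, which overlaps the same repeat, Dynlt1f, Rps27rt, Igha, Jchain and 3 antibody variable segments. Those that were lower were Jun, Atf3, 4 histone genes (Hist1h3e, Hist1h4c, Hist1h4d and Hist1h4n), the colonocyte gene Car1, Gm8797 and 1 antibody variable segment. Antibody heavy chains and Jchain summed to 500.1 CPM in T cells at day 2 and 994 CPM at day 7. What part these shifts of a whole library had in the results below was not tested.

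Each barcode was assigned to the class with the most detected of 8 marker genes, at least 2 being needed, and barcodes tied between classes were left out. T cells made up most of both libraries, 64.4% (4819 cells, 63.3 to 65.4%) at day 2 and 66.4% (4348 cells, 65.3 to 67.6%) at day 7, where the ranges are exact 95% binomial intervals that cover counting error only. B cells were 1.26% (94 cells, 1.02 to 1.53%) at day 2 and 10.7% (703 cells, 10.00 to 11.5%) at day 7, a log2 ratio of shares of 3.10 (2.78 to 3.42). Plasma cells, which secrete antibody, were 1.15% (86 cells, 0.920 to 1.42%) and 4.63% (303 cells, 4.13 to 5.17%), a log2 ratio of 2.01 (1.66 to 2.37). The antibody lineage was thus the part of the leukocyte compartment that stood furthest above its early share. In depleted mice without DSS, plasma cells were 46.8% (599 cells) and B cells 0.703% (9 cells) of kept cells. Plasma cells lay below that share at both days of DSS. Monocytes or macrophages were 1.88% (141 cells, 1.59 to 2.22%) and 3.42% (224 cells, 2.99 to 3.89%), a log2 ratio of 0.86 (0.55 to 1.18). Neutrophils were 0.681% (51 cells, 0.508 to 0.895%) and 1.25% (82 cells, 0.997 to 1.55%), a log2 ratio of 0.88 (0.36 to 1.41).

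Epithelial cells, which should have been lost with EDTA and in the sort for CD45, were 16.8% (1258 cells, 16.0 to 17.7%) at day 2 and 1.36% (89 cells, 1.09 to 1.67%) at day 7, a log2 ratio of -3.63 (-3.95 to -3.32). They were the class furthest below their early share, and since they lowered every other share at day 2, shares were also taken over the 5608 and 6006 immune cells. On that denominator T cells were 85.9% at day 2 and 72.4% at day 7, a log2 ratio of -0.25. The log2 ratios of the others on it were 2.80 for B cells, 1.72 for plasma cells, 0.57 for monocytes or macrophages and 0.59 for neutrophils. NK cells had shares of 2.39% and 2.32% of all kept cells, ILC2 (group 2 innate lymphoid cells, makers of type 2 cytokines) 1.62% and 1.65%, and conventional dendritic cells 0.868% and 0.764%. For these 3 classes the interval of the log2 ratio over all kept cells included 0. Over immune cells the log2 ratio was -0.33 (-0.66 to -0.015) for NK cells, whose interval lay below 0, -0.26 (-0.65 to 0.12) for ILC2 and -0.48 (-1.04 to 0.077) for dendritic cells. A share of cells does not tell more cells of one class from fewer of the others. Check genes that the gates did not use were highest in their own class for 8 of 8 in ILC2, neutrophils and epithelial cells in both libraries. At days 2 and 7 the number was 5 and 6 of 8 in T cells, 6 and 5 in NK cells, 7 and 7 in B cells, 8 and 7 in plasma cells and 6 and 7 in monocytes or macrophages, where Ly6c2 was highest in plasma cells at both days and Ccr2 in ILC2 at day 2. Dendritic cells reached 4 of 8 at day 2 and 5 at day 7, with H2-Aa, H2-Ab1 and Clec10a highest in monocytes or macrophages at day 2.

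**Figure D1:**
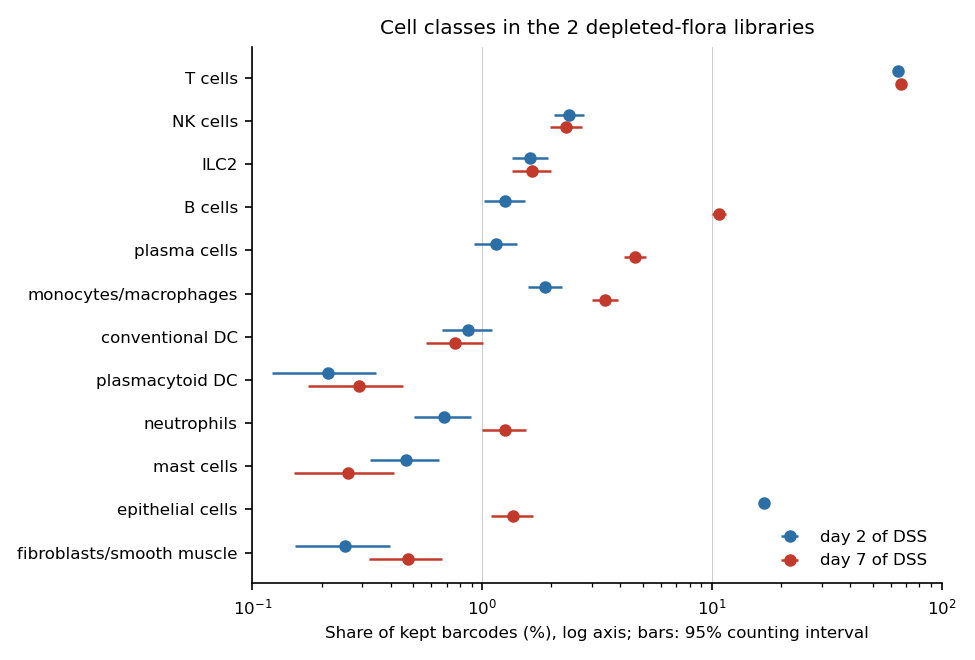
Share of kept cells in each marker-gated class (x axis, percent on a log scale) at day 2 and day 7, with points for the 2 libraries and bars for exact 95% binomial intervals. B cells and plasma cells lie furthest to the right of their day 2 position and epithelial cells furthest to the left.

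Genes were then compared by summing UMIs over the cells of a class, for the 9 classes that had 50 or more cells in each library. A gene counts as measured with at least 10 CPM in either library, and as 2-fold higher or lower by log2 of (CPM + 10), the scale of all log2 folds below. Ratios given with a range are plain CPM ratios with exact 95% conditional binomial intervals, which cover counting error only. A gene that reached 10 CPM in one library alone had to be higher there. Of 8181 genes measured in T cells, 33 (0.403%) were at least 2-fold higher at day 7 and 42 (0.513%) at least 2-fold lower, with a median over all of them of -0.02. T cells, the largest class, thus had few genes past 2-fold.

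**Figure D2:**
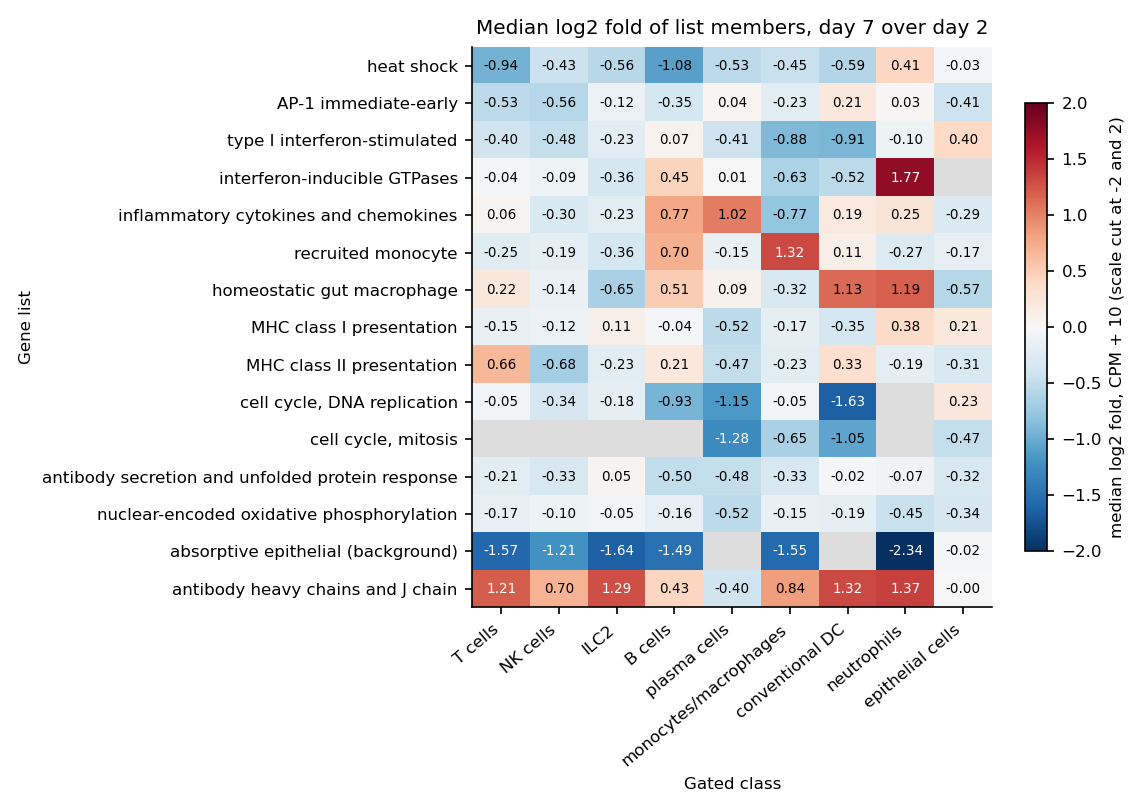
Median log2 fold (day 7 over day 2, CPM + 10) of the measured members of gene lists (rows) in 9 cell classes (columns), in colour. Grey marks lists with fewer than 3 measured members in a class. The recruited monocyte list reaches 1.32 in monocytes or macrophages, the GTPase list reaches 1.77 in neutrophils, and the heat shock list lies below 0 in every class other than neutrophils.

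Heat shock genes were lower at day 7 in T cells as a group. Heat shock proteins are chaperones that hold or refold damaged proteins, and their genes are switched on by heat, oxidative stress and other protein damage. All 11 members were lower at day 7 and 3 were at least 2-fold lower, with a median of -0.94, and their summed level was 10103 CPM at day 2 and 5873 CPM at day 7. Hspa1a, an inducible member of the Hsp70 family, had 604 CPM at day 2 and 296 CPM at day 7 and was 2.04-fold lower at day 7 (1.97 to 2.13). Its UMIs were found in 32.7% of cells at day 2 and 15.3% at day 7, or in 22.8% and 11.5% after thinning to 1000 UMIs a cell. Its near-identical copy Hspa1b had 981 CPM at day 2 and 501 CPM at day 7; reads that match both copies may have been split or lost, so these 2 values are uncertain singly. Dnaja1, a J-domain partner of Hsp70, had 1250.2 CPM at day 2 and 607 CPM at day 7 and was 2.06-fold lower at day 7 (2.00 to 2.12). Hspe1 and Hspd1, which together form the mitochondrial folding chamber, had 1208 and 608 CPM and 406 and 207 CPM at days 2 and 7. The Hsp90 genes Hsp90aa1 and Hsp90ab1 had 1373 and 763 CPM and 2075 and 1475 CPM. Hspa8, the constitutive Hsp70, had 1459 and 972 CPM, Dnajb1 394 and 258 CPM and Hsph1 316 and 177 CPM. The small heat shock gene Hspb1, at 36.6 and 9.01 CPM, was the lowest in level. Day 2 was the highest of all 6 libraries for the summed list in T cells, against 6847 CPM in depleted mice without DSS and 8237, 6231 and 3629 CPM at days 0, 2 and 7 with an intact flora.

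Because these genes moved together, their promoters are shown. The letters GAANNTTC are 2 of the inverted units that heat shock factor 1 is known to bind, and they were searched on both strands in the 250 bases before each RefSeq start in GRCm38.p6. They occurred in 6.69% of all 32851 promoters and in 6 of the 13 promoters of list members, some genes having several. By gene, 6 of 8 list members with a promoter entry had a match in any of them, out of 11 members. Dnajb1 and Hsph1 had no match in this window. The 200 bases before the start of 3 members follow, 5′ to 3′ on the gene's strand, with the match in capitals.
Hspa1a, chr17:34972157-34972356, minus strand: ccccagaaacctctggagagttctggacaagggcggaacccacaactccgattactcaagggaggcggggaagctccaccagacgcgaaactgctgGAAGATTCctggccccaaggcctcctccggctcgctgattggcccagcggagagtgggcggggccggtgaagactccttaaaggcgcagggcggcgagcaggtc
Dnaja1, chr4:40722268-40722467, plus strand: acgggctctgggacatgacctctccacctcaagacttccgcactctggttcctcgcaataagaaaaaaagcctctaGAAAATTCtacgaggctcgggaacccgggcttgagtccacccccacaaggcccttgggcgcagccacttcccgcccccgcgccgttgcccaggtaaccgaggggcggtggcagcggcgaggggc
Hspe1, chr1:55087948-55088147, plus strand: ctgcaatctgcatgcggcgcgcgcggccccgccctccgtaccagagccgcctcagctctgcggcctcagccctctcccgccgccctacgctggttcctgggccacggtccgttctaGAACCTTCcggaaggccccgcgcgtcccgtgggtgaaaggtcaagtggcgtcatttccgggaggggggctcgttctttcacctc
Each of the 3 holds 1 match, at a different distance from its start. A match is a description of the sequence and not a measured binding site.

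Outside T cells, heat shock genes passed 2-fold mainly in B cells, where 6 of 10 measured members were lower, with a median of -1.08 against 0.03 over all genes of the class. The list's median was also below that of all genes in dendritic cells (-0.59 against -0.18), ILC2 (-0.56 against -0.09), plasma cells (-0.53 against -0.26), monocytes or macrophages (-0.45 against -0.08) and NK cells (-0.43 against -0.04). At least 2-fold lower were 1 of 10 members in dendritic cells (9.21% of all genes) and 1 of 11 in NK cells (2.18%). In ILC2 0 of 10 were lower (5.83% of all genes) and in plasma cells 0 of 11 (2.83%). In monocytes or macrophages 1 of 11 was lower (2.07% of all genes) and 1 higher (1.4%). Counts of 0 or 1 in a list this short do not set it apart from all genes. In neutrophils the list's median was 0.41, with the list's sum at 1725 CPM at day 2 and 2044 CPM at day 7. Jun and Atf3, stress-induced transcription factors of the AP-1 family, were also lower in most classes, and in T cells they had 774 and 428 CPM and 71.3 and 26.2 CPM. Other AP-1 genes of T cells differed less, Fos with 774 and 466 CPM and Junb with 1758 and 1709 CPM. The AP-1 list's median in T cells was -0.53, with 1 of 10 measured members at least 2-fold lower. Both lists hold genes that warm enzymatic digestion of tissue is known to induce.

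**Figure D3:**
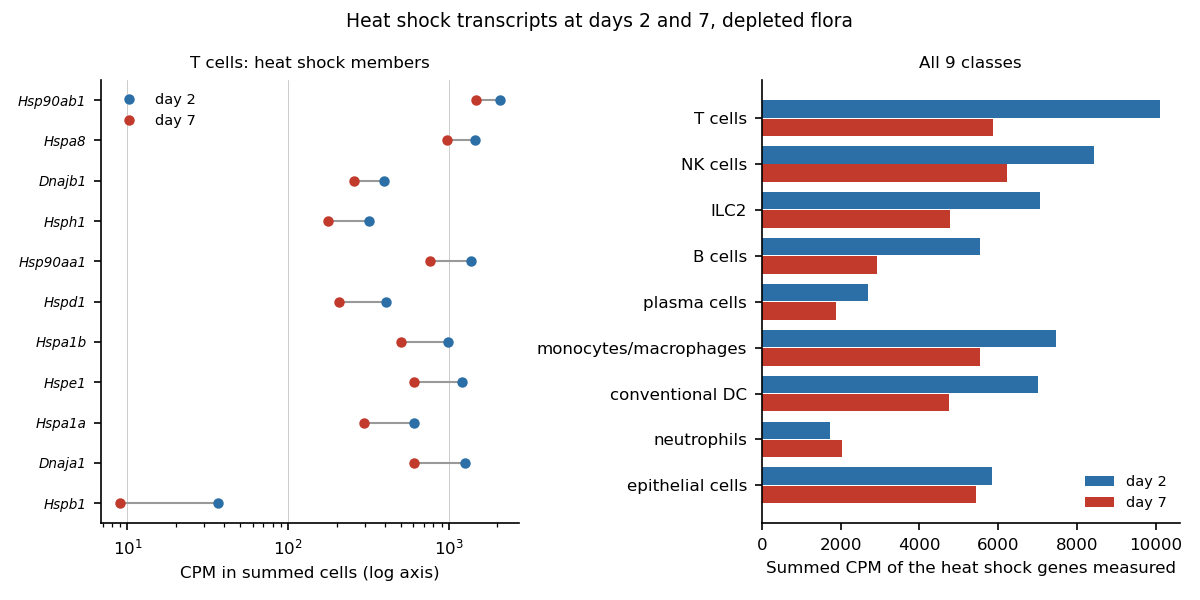
Levels of the heat shock genes in T cells (left, CPM on a log axis, 1 point per library) and the summed CPM of the list in 9 classes (right, bars from 0) at day 2 and day 7. Each T cell member lies lower at day 7, and the summed bar is lower at day 7 in every class other than neutrophils.

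Among the other genes named in T cells, those lower at day 7 included receptors of activated cells. Tnfrsf9, which encodes the costimulatory receptor 4-1BB, had 121 CPM at day 2 and 58.8 CPM at day 7 and was 2.06-fold lower at day 7 (1.89 to 2.25). The inhibitory receptor gene Tigit had 120.1 and 58.8 CPM and was 2.04-fold lower at day 7 (1.87 to 2.23). The GTPase gene Rhob had 132 and 64.4 CPM, and the histone genes Hist1h2ae and Hist1h4d 63.2 and 21.5 CPM and 78.2 and 36.5 CPM. Higher at day 7 was Cd8b1, the beta chain of the CD8 co-receptor, at 52.7 and 92.0 CPM, 1.75-fold higher at day 7 (1.60 to 1.91). The others of that rank, Lars2, Trim44, Hypk, Scaf1, Ogt, Tbc1d10c, Tcf20 and Fam78a, were below 2-fold, and AY036118 had 3166 and 8774 CPM.

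Of the genes of naive and circulating T cells, Ccr7 passed 2-fold and was higher at day 7. Ccr7, the receptor that guides T cells to lymph nodes, had 46.9 CPM at day 2 and 115 CPM at day 7 and was 2.45-fold higher at day 7 (2.24 to 2.68). Its UMIs were in 4.42% of cells at day 2 and 9.22% at day 7, and in 2.41% and 6.45% after thinning to 1000 UMIs a cell, with none in thinned ILC2. The median depth was 3092 and 2484 UMIs in T cells and 2914 and 2557 in ILC2. B cells, 1.26% of kept cells at day 2 and 10.7% at day 7, held more Ccr7 than T cells at both days. What part B cell RNA had in the Ccr7 of T cells was not tested. Tcf7, a transcription factor of naive and memory cells, had 288 and 270.4 CPM. Of 9 measured members of the naive list 1 was 2-fold higher and the median was 0.27. Within the T cell subsets described below, the list's median was 0.43 in Cd4 cells, 0.18 in Cd8b1 cells, -0.13 in Cd8a cells without Cd8b1 and -0.12 in gamma-delta cells, so it did not lie on 1 side of 0. In Foxp3 cells, 27 at day 2 and 43 at day 7, the list's median was 1.35, with 7 of 9 measured members at least 2-fold higher. There 15.8% of all genes were at least 2-fold higher, and 1 UMI at day 2 was enough to pass 10 CPM. The granzyme, chemokine and type 1 cytokine genes named next were within 2-fold. The granzyme genes Gzma and Gzmb had 3314 and 2783 CPM and 512 and 396 CPM, the chemokine Ccl5 6844 and 6952 CPM and Ifng, the type 1 cytokine, 66.9 and 73.0 CPM. Of the residence genes, Itgae (CD103, which binds epithelial cadherin) had 401 and 433 CPM and Cd69 415 and 339.8 CPM. Areg, which encodes the repair factor amphiregulin, had 54.5 and 21.9 CPM and was at least 2-fold lower at day 7.

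Interferon-stimulated genes of T cells were lower by a smaller margin. The list's median was -0.40, with 1 of 14 measured members at least 2-fold lower, the chemokine gene Cxcl10 at 64.1 and 20.8 CPM. Isg15, a ubiquitin-like protein induced by interferon, had 141 and 69.9 CPM and UMIs in 24.6% of cells at day 2 and 13.2% at day 7. After thinning these shares were 10.6% and 5.98%, while in B cells they were 1.10% and 0.905% at median depths of 2628 and 1934 UMIs before thinning. MHC class II genes, which antigen-presenting cells express, had a median of 0.66 in T cells, H2-Aa with 28.1 and 63.5 CPM and Cd74 with 88.1 and 164 CPM. Beside them, the summed gate genes of B cells within T cells were 17.1 CPM at day 2 and 36.5 CPM at day 7. With barcodes of high doublet score removed, the class II median in T cells was -0.015.

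T cells were split by their own receptor and co-receptor UMIs, which depend on depth, so shares are also given after thinning to 1000 UMIs. Cells with Cd4 and no Foxp3 UMI were 2.22% of T cells at day 2 and 4.14% at day 7, a log2 ratio of 0.90 (0.55 to 1.26), and 1.40 (0.85 to 1.98) after thinning. Cells with Cd8b1 were 6.97% and 11.7%, a log2 ratio of 0.75 (0.55 to 0.95), and 0.81 (0.54 to 1.08) after thinning. Gamma-delta T cells, with Trdc and no alpha-beta constant chain UMI, were 3.11% and 1.72%, a log2 ratio of -0.85 (-1.27 to -0.44), and -0.65 (-0.96 to -0.35) after thinning. Their shares after thinning were larger, 5.38% and 3.43%. Thinning can also remove the alpha-beta UMIs that keep a cell out of this gate. How many cells entered it that way was not tested. The conventional alpha-beta subsets thus held a larger share late, and gamma-delta cells a smaller one. Cells with Cd8a and no Cd8b1, the co-receptor form known from intraepithelial lymphocytes, were 36.1% and 33.1%, with a log2 ratio of 0.06 (-0.06 to 0.19) after thinning. Cells with Foxp3, the regulatory T cell factor, were 27 at day 2 and 43 at day 7, and after thinning the interval of their log2 ratio, 0.62 (-0.40 to 1.68), included 0. Between 48.3% and 51.0% of T cells had none of these UMI patterns.

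**Figure D4:**
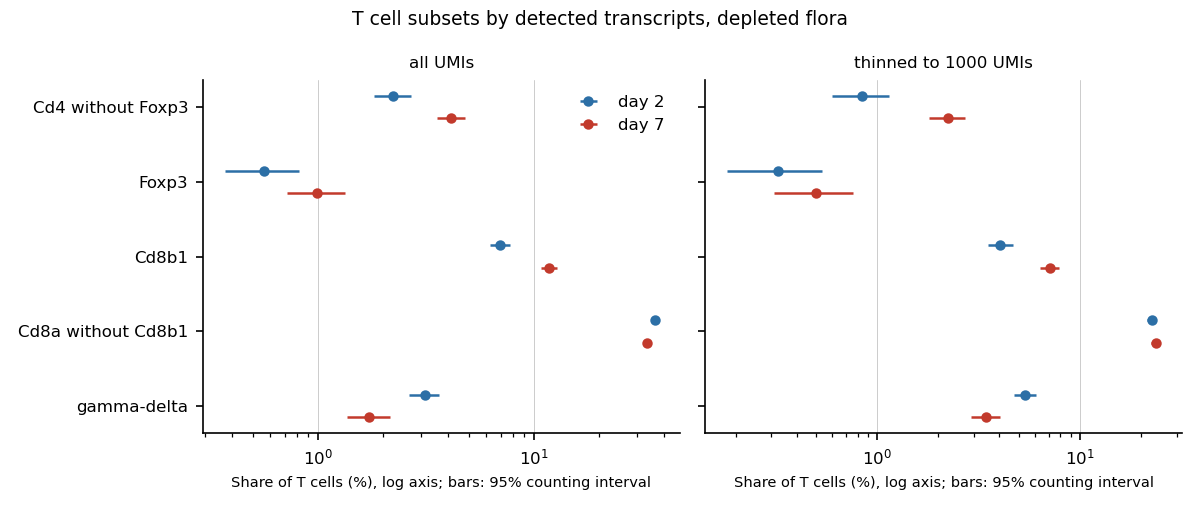
Shares of T cells in subsets defined by receptor and co-receptor UMIs (percent, log axis) at day 2 and day 7, over all UMIs and after thinning to 1000 UMIs, with exact 95% binomial intervals. The Cd4 and Cd8b1 subsets lie higher and the gamma-delta subset lower at day 7 at both depths.

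The lower heat shock level was present inside the subsets. The list's median was -1.05 in Cd4 cells, -0.83 in Cd8b1 cells, -0.85 in Cd8a cells without Cd8b1 and -0.55 in gamma-delta cells, each against a median over all measured genes between -0.06 and -0.0041. In Cd4 cells 7 of 10 measured members were at least 2-fold lower, where 3.11% of all genes were. Cd4 cells also differed in Areg, with 319 and 59.3 CPM at days 2 and 7. Their MHC class II gene Cd74 had 30.3 and 252 CPM, from 11 and 123 UMIs. Of 7 measured MHC class II genes, 4 were at least 2-fold higher in them, with a median of 1.64, where 3.29% of all genes were. What part RNA of antigen-presenting cells or doublets had in the genes or share of the Cd4 subset was not tested. In Cd8b1 cells, Gzmk, a granzyme of memory-like cells, had 37.3 and 79.2 CPM and Ccl4, a chemokine of activated T cells, 1024 and 2102 CPM. In gamma-delta cells 7 of 16 measured interferon-stimulated genes were at least 2-fold lower, with a median of -0.91, where 8.03% of all genes were. Dividing T cells were few at both days, 0.809% of cells at day 2 (39 of 4819) and 0.391% at day 7 (17 of 4348).

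Monocytes or macrophages carried a stronger monocyte signature at day 7. Of 8231 genes measured, 115 (1.4%) were at least 2-fold higher at day 7 and 170 (2.07%) at least 2-fold lower, with a median over all of them of -0.08. Of 12 measured genes of recruited monocytes, 9 were at least 2-fold higher, and the remaining ones were higher by less, with a median of 1.32, and their sum was 2922 CPM at day 2 and 5765 CPM at day 7. Ly6c2, the surface antigen of classical mouse monocytes, had 109.8 CPM at day 2 and 389 CPM at day 7 and was 3.54-fold higher at day 7 (2.78 to 4.56). Its UMIs were in 10.6% of cells at day 2 and 20.5% at day 7, and in 6.40% and 15.2% after thinning to 1000 UMIs a cell, with none in thinned ILC2, at median depths of 4034 and 3174 UMIs. Plasma cells held more Ly6c2 than this class, with 1639 and 1478 CPM, and their gate genes summed to 187 CPM in monocytes or macrophages at day 2 and 162 CPM at day 7. What part plasma cell RNA had in Ly6c2 was not tested. Plac8, another gene of young monocytes, had 327 and 837 CPM and Chil3, a chitinase-like protein of monocytes, 24.1 and 152 CPM. Ccr2, the receptor through which monocytes leave the marrow, had 308 and 522 CPM and was below 2-fold, as were S100a6 (1112 and 1551 CPM) and Itgam (167 and 239 CPM). The matrix genes Fn1, Vcan and Thbs1 had 187 and 399 CPM, 8.03 and 50.0 CPM and 377 and 776 CPM. F10, which encodes coagulation factor X, had 9.37 and 64.8 CPM, and S100a4 290.5 and 737 CPM. The sum of this list over the 6 libraries was lowest in depleted mice without DSS (1826 CPM) and reached 18101 CPM at day 7 with an intact flora.

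**Figure D5:**
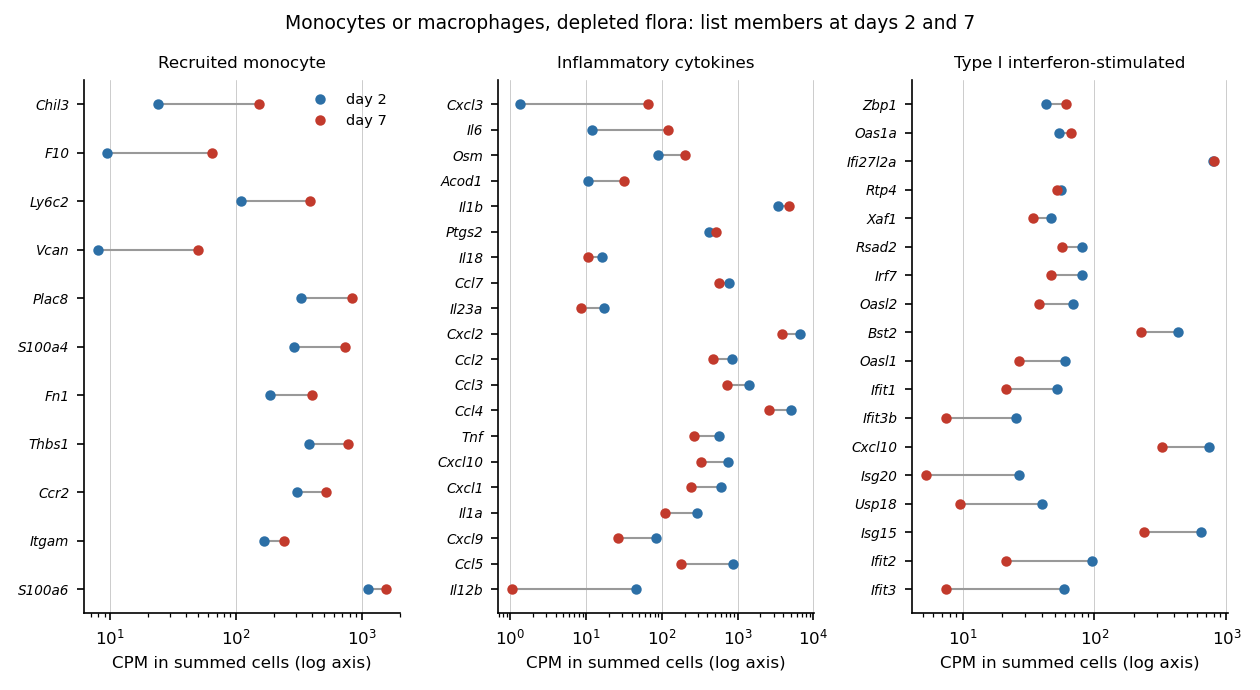
Levels of recruited monocyte, interferon-stimulated and inflammatory genes in monocytes or macrophages (CPM on a log axis) at day 2 and day 7, 1 point per library. Monocyte genes such as Ly6c2 and Chil3 lie higher at day 7, and interferon-stimulated genes such as Ifit3 and Isg15 lower.

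Inflammatory mediators of these cells went in both directions. Of 20 measured members, 4 were at least 2-fold higher and 7 at least 2-fold lower, with a median of -0.77. Il6, a cytokine of acute inflammation, had 12.0 CPM at day 2 and 119 CPM at day 7, from 9 and 112 UMIs, and was 9.88-fold higher at day 7 (5.02 to 22.2). Cxcl3, a chemokine for neutrophils, had 1 and 61 UMIs, and the cytokine Osm 89.7 and 199.9 CPM. Acod1, which makes itaconate, had 10.7 and 31.9 CPM. On the lower side, Ccl5, which attracts lymphocytes, had 873 and 179.7 CPM, the interferon-induced chemokines Cxcl9 and Cxcl10 83.0 and 26.6 CPM and 743 and 324 CPM, and Il12b, a subunit of IL-12 and IL-23, 34 and 1 UMIs. Tnf had 564 and 265 CPM, Il1a 292 and 109 CPM and the neutrophil chemokine Cxcl1 610.4 and 243 CPM. Within 2-fold were Il1b, the inflammasome cytokine, with 3422 and 4832 CPM, the neutrophil chemokine Cxcl2 with 6601 and 3905 CPM and Ccl4 with 5107 and 2555 CPM.

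Interferon-stimulated genes were lower at day 7 in monocytes or macrophages. Of 19 measured members 7 were at least 2-fold lower and none higher, with a median of -0.88, and the sum was 3535 CPM at day 2 and 2169.7 CPM at day 7. Isg15 had 644 CPM at day 2 and 236 CPM at day 7 and was 2.73-fold lower at day 7 (2.32 to 3.21). Ifit3 and Ifit2, proteins that bind foreign RNA or restrict translation, had 58.9 and 7.44 CPM and 96.4 and 21.3 CPM. Bst2, the tethering factor of enveloped viruses, had 426 and 226 CPM. In the other arm the sum was 2134 CPM at day 2 and 3265 CPM at day 7, and in depleted mice without DSS it was 2089 CPM, so the day 2 library was the highest of the 6. The promoters of Isg15 and Ifit3 were read for GAAANNGAA, a repeat within the interferon-stimulated response element, on both strands. The letters occurred in 7.13% of the 32851 promoters and in 8 of the 18 promoters of list members. By gene, 8 of 15 list members with a promoter entry had a match in any of them, out of 20. The 200 bases before each start follow, with the 3 matches of each in capitals; those of Isg15 overlap.
Isg15, chr4:156200819-156201018, minus strand: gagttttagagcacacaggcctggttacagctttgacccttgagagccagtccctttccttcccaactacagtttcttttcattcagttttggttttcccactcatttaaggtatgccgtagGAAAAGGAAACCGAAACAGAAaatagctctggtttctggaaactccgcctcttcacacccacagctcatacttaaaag
Ifit3, chr19:34583329-34583528, plus strand: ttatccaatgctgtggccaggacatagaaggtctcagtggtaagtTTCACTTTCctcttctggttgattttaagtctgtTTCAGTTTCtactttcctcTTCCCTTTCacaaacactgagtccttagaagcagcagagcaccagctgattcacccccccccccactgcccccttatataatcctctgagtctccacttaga
In Isg15 they form 1 run, and in Ifit3 they stand in 3 separate places. A match is a description of the sequence and not a measured binding site.

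Genes of resident gut macrophages did not pass 2-fold in either direction in the class as a whole, with 0 of 18 measured members higher, 0 lower and a median of -0.32. C1qa, a complement subunit that marks resident macrophages, had 2708 and 1751 CPM, and the lipid carrier Apoe 8326 and 10651 CPM. Selenop, a selenium transporter, had 713 and 1370.3 CPM, the mannose receptor Mrc1 329 and 332 CPM and the scavenger receptor Cd163 17.4 and 39.3 CPM. Il10, an anti-inflammatory cytokine, had 182 and 107 CPM. Among further genes, Vegfa, the vessel growth factor, had 25.4 and 95.7 CPM, complement C3 18.7 and 91.4 CPM and the chemokine Ccl9 126 and 371 CPM. Ahnak had 303 and 858 CPM, Plec 33.5 and 107 CPM, Uck2 14.7 and 57.4 CPM and the receptor gene Gpr35 4 and 71 UMIs. The lower group held Ccl12, a monocyte chemokine, at 511 and 115 CPM, the nuclease Dnase1l3 at 601 and 173 CPM and Apol7c at 205 and 61.7 CPM, and also Rcan1, Ccnb1ip1, Cst7 and Lyz1. For Lyz1, 1 cell gave 73.9% of the 276 UMIs at day 2. Among cells with fewer than 2 gate genes of any other class (69 at day 2 and 161 at day 7), an alternative added after seeing the data, the log2 folds of Dnase1l3 and Cst7 were 0.096 and 1.01, against -1.74 and -1.92 in all cells of the class, and that of Cxcl9 was 0.85 against -1.35.

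Some of these values ran beside RNA of other cells. Gate genes of T cells summed to 353 CPM in this class at day 2 and 128 CPM at day 7, and those of epithelial cells to 139 and 26.6 CPM. Gzma, a T and NK cell gene, had 94 and 4 UMIs. The neutrophil genes Retnlg and Slpi were higher late, Retnlg with 0 and 24 UMIs and Slpi with 9.37 and 68.0 CPM, while the neutrophil gate genes summed to 268 and 155 CPM. What part such RNA had in Ccl5, a T cell chemokine, was not tested.

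A split by the resident macrophage genes C1qa, C1qb and C1qc was made after the values of the class had been seen. Because it sorts cells by genes of the resident end of the monocyte to macrophage series, levels of monocyte genes on its 2 sides are a description that the split itself partly sets. Cells with at least 2 of the 3 were 110 of 141 at day 2 (78.0%) and 148 of 224 at day 7 (66.1%), or 79.2% and 60.7% after thinning. Among these C1q-positive cells 9 of 20 measured interferon-stimulated genes were at least 2-fold lower, with a median of -0.98, where 2.57% of 8253 genes were. Isg15 had 612 and 234 CPM in them. Their recruited monocyte genes had a median of 0.04 over 8 measured members, with Ly6c2 at 83.8 and 76.5 CPM and Plac8 at 150.2 and 149.8 CPM. Fn1 had 60.1 and 167 CPM. In the cells with fewer C1q genes, 31 at day 2 and 76 at day 7, 6 of 12 recruited monocyte genes were at least 2-fold higher, with a median of 1.06, where 11.4% of 7555 genes were. Ly6c2 had 253 and 1015 CPM, Il1b 3252 and 7624 CPM and Il6 26.2 and 303 CPM. Isg15 was lower here too, at 819 and 239 CPM, with 3 of 18 interferon-stimulated genes at least 2-fold lower and 14.3% of all genes, and a list median of -0.34. Heat shock genes were at least 2-fold lower in 8 of 10 measured members in these cells, with a median of -1.39, and in 0 of 11 in the C1q-positive ones, where 1 was higher and the median was -0.30. The inflammatory list's median was 0.71 in these cells and -0.91 in the C1q-positive ones. Resident macrophage genes other than C1q passed 2-fold on both sides. In C1q-positive cells 3 of 15 were higher and 1 lower, with a median of 0.23, where 1.41% of all genes were higher. In the cells with fewer C1q genes 5 of 10 were higher and 1 lower, with a median of 1.08, where 11.4% of all genes were higher.

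Conventional dendritic cells carry antigen to T cells, and their cell cycle genes were lower at day 7. Of 7988 genes measured, 186 (2.33%) were at least 2-fold higher at day 7 and 736 (9.21%) at least 2-fold lower, with a median over all of them of -0.18. Of these calls 20.2% were higher, and 33.8% with TMM scaling. Of 10 DNA replication genes 9 were at least 2-fold lower, with a median of -1.63, and of 9 measured mitosis genes 5, with a median of -1.05. Pclaf, a partner of the replication clamp, had 226 and 54.8 CPM, Pcna, the clamp itself, 211 and 96.7 CPM, and Mki67, the proliferation antigen, 131 and 58.0 CPM. Rrm2, which supplies DNA building blocks, had 28 and 1 UMIs. Dividing cells were 23.1% at day 2 (15 of 65, 13.5 to 35.2%) and 12.0% at day 7 (6 of 50, 4.53 to 24.3%). After thinning they were 7.94% (2.63 to 17.6%) and 4.44% (0.54 to 15.1%), with overlapping intervals at both depths. Interferon-stimulated genes were lower here as well, 8 of 18 measured members at least 2-fold, with a median of -0.91 and Isg15 at 289 and 41.9 CPM. Apol7c had 371 and 32.2 CPM. On the higher side were Trib1 (67.2 and 258 CPM), Bcl11a (29.9 and 103 CPM), Myd88, the adaptor of Toll-like receptors (28.0 and 96.7 CPM), and Pot1b. Il1b had 754 and 2189 CPM and the MHC class II gene H2-Aa 6870.4 and 9268 CPM, while the gate genes of monocytes or macrophages summed to 1062 and 1061 CPM in this class.

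Neutrophils were few, 51 cells at day 2 and 82 at day 7, and shallow, with medians of 1985 and 1194 UMIs. Of 7796 genes measured, 1053 (13.5%) were at least 2-fold higher at day 7 and 1934 (24.8%) at least 2-fold lower, with a median over all of them of -0.16. Of these calls 35.3% were higher, and 52.5% with TMM scaling. The class total was 98554 UMIs at day 2 and 124294 at day 7. With so few, 1 UMI at day 2 and none at day 7 made a gene both measured and 2-fold lower. At day 7, 1 UMI fell short of 10 CPM, so higher and lower calls did not meet equal demands. The interferon-inducible GTPases, which attack intracellular pathogens, were higher in all 13 measured members, with a median of 1.77 and sums of 457 and 1786 CPM. They rested on 45 UMIs at day 2 and 222 at day 7, 95 of them in 1 cell. Without the cell with most of them in each library, 6 of 10 were at least 2-fold higher, 1 was lower and the median was 1.43. The share of neutrophils with any such UMI went the other way, 35.3% at day 2 and 17.1% at day 7, or 27.1% and 16.9% after thinning. The chemokine gene Cxcl3 had 9 and 101 UMIs, or 91.3 and 813 CPM, and the stress factor Atf3 639 and 177 CPM. Il23a, a subunit of IL-23, had 37 and 15 UMIs. Il1b was abundant in both, at 14327 and 19253 CPM, and the iron-sequestering protein Lcn2 had 1299 and 475 CPM.

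B cells, the class with the largest gain in share, also had lower heat shock genes at day 7. Of 8065 genes measured, 264 (3.27%) were at least 2-fold higher at day 7 and 221 (2.74%) at least 2-fold lower, with a median over all of them of 0.03. The day 2 side rested on 94 cells against 703 at day 7. Heat shock genes were lower in 6 of 10 measured members by at least 2-fold, Hspa1a with 263 and 57.9 CPM, Dnaja1 with 399 and 187 CPM and Hspe1 with 804 and 353 CPM. None of 11 measured MHC class II genes passed 2-fold, H2-Aa with 5008 and 5240.4 CPM, and Ccr7 had 1171 and 1037 CPM. Of 13 measured genes of mature and germinal centre B cells 0 were at least 2-fold higher and 3 lower, with a median of -0.05. Within 2-fold were genes of mature naive cells. Ighd, the IgD heavy chain, had 477 and 870.5 CPM, Ighm, the IgM chain, 1794 and 2416 CPM, Fcer2a (CD23) 276 and 338 CPM and the complement receptor Cr2 159 and 209 CPM. Class-switched IgG chains were lower, Ighg1 with 19 and 0 UMIs and Ighg3 with 22 and 2 UMIs. Xbp1, a driver of antibody secretion, had 90.8 and 35.0 CPM, and 3 of 15 secretion genes were at least 2-fold lower. Pdcd1lg2, the checkpoint ligand PD-L2, had 77.9 and 24.2 CPM and Ahr, the receptor for aryl compounds, 114 and 39.7 CPM. Cyp51, Grasp, Rilpl2 and Ciao2b were also lower.

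Some named B cell genes came from single cells. At day 2, 1 cell gave 64.0% of the 50 UMIs of Hist1h2ae, 62.1% of the 58 UMIs of Hist1h2ap and 64.0% of the 25 UMIs of Mcm6. At day 7, 1 cell gave 58.1% of the 93 UMIs of Mcpt1, a mast cell protease. The genes higher late included Ing1 (19.5 and 77.4 CPM), Luc7l3 (26.0 and 91.5 CPM) and Maf1 (38.9 and 114 CPM), with Ginm1, Pgap1, Pdpk1, Tent5a and Cxxc5, each from 5 to 12 UMIs at day 2.

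Plasma cells at day 7 had a larger share of the library and lower cell cycle genes. Of 5612 genes measured, 75 (1.34%) were at least 2-fold higher at day 7 and 159 (2.83%) at least 2-fold lower, with a median over all of them of -0.26. Of these calls 32.1% were higher, and 52.0% with TMM scaling. Mitosis genes were at least 2-fold lower in 5 of 7 measured members and DNA replication genes in 6 of 9, with medians of -1.28 and -1.15. Mki67 had 107 CPM at day 2 and 19.4 CPM at day 7 and was 5.52-fold lower at day 7 (4.24 to 7.23), and Top2a, which untangles replicated DNA, had 62.5 and 10.5 CPM. At day 2, 1 cell gave 28.3% of the 173 Mki67 UMIs, which came from 17 cells. Likewise 1 cell gave 31.7% of the 101 Top2a UMIs, from 14 cells. Dividing cells were 14.0% of cells at day 2 (12 of 86) and 3.96% at day 7 (12 of 303). After thinning they were 3.53% (0.73 to 9.97%) and 1.65% (0.54 to 3.81%), with overlapping intervals. The surface protein genes Cd52 and Ly6k were lower too, Cd52 with 1472 and 392 CPM and Ly6k with 147 and 10.5 CPM. IgA dominated both libraries: Igha was the highest heavy chain in 97.7% of plasma cells at day 2 and 97.7% at day 7, and its level was 117993 and 172260 CPM. Jchain, which links IgA into dimers, had 53137 and 56899.9 CPM. Secretion genes were a little lower, with a median of -0.48, none past 2-fold, Xbp1 at 1160.1 and 1002 CPM (log2 fold -0.21, and 0.16 with TMM scaling) and the chaperone Hspa5 at 1008 and 676 CPM, and the median over all genes was itself below 0. Ccr10, the receptor that draws IgA cells to the colon, had 258 and 154 CPM. Slc3a2, an amino acid transporter subunit, had 203 and 370.5 CPM, Rgcc 136 and 243 CPM, Sik1 72.4 and 125 CPM and Ctla4 147 and 239 CPM, all below 2-fold.

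NK cells and ILC2, the innate lymphocytes, differed in scattered genes. In NK cells, of 8257 genes measured, 140 (1.7%) were at least 2-fold higher at day 7 and 180 (2.18%) at least 2-fold lower, with a median over all of them of -0.04. Areg in NK cells had 88 and 6 UMIs, or 161 and 13.6 CPM, and Rhob 176 and 47.5 CPM. The killing genes Gzmb and Prf1 had 546 and 537 CPM and 306 and 306 CPM, Gzma 2688 and 1619 CPM and Ifng 231 and 299 CPM. Lars2, Zfp639, Uhrf1bp1l and Rassf1 were the named genes higher late beside AY036118, and Arnt, Eif2s1, Smarcad1 and Hist1h4d the lower ones. In ILC2, of 7905 genes measured, 286 (3.62%) were at least 2-fold higher at day 7 and 461 (5.83%) at least 2-fold lower. Of these calls 38.3% were higher, and 51.3% with TMM scaling. Areg, which ILC2 express strongly, had 1561 and 1567 CPM there, and Csf2, a myeloid growth factor, 679 and 625 CPM. Of 11 measured inflammatory genes 5 were at least 2-fold lower. Named genes of ILC2 rested on 3 to 49 UMIs, with Nudcd3, Dnmt1, Ccdc47 and Fkbp5 higher and Plin2, Ypel2, Arid5a, Lin54 and Chka lower. Fkbp5, a glucocorticoid-induced gene, had 25.4 and 79.3 CPM.

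Among the epithelial cells that passed the sort, several genes of tuft cells, chemosensory cells that alert type 2 immunity, were higher late. Of 8814 genes measured, 120 (1.36%) were at least 2-fold higher at day 7 and 56 (0.635%) at least 2-fold lower, with a median over all of them of -0.0036. The tuft genes were a group noticed after the values had been seen. The tuft markers Dclk1 and Trpm5 had 28.0 and 176 CPM and 23.2 and 143 CPM. Nrgn, Siglecf, Hap1 and Sh2d6 were among the named genes higher late. Cells with at least 3 of 6 tuft genes were 10.2% at day 2 and 13.5% at day 7, or 4.94% and 16.7% after thinning, the last from 12 of 72 cells. The hormone genes Pyy and Chgb had 4500 and 0 UMIs and 1900 and 0 UMIs, from 12 and 19 cells at day 2, of which 1 cell gave 58.9% of the Pyy UMIs. Cells with at least 3 of 8 enteroendocrine genes were 15 of 1258 at day 2 and 0 of 89 at day 7, which allows a share of up to 3.37%. The day 2 share, 1.19%, is under that limit, so a difference was not detectable with 89 cells at day 7. Reg3b and Reg3g, antimicrobial lectins that the flora induces, had 99.4 and 698 CPM and 53.9 and 206 CPM. Reg4 had 429.8 and 44.3 CPM and the stress cytokine Gdf15 131 and 9.22 CPM. Absorptive genes were close together, with a median of -0.02, and 4 of 8 goblet cell genes were at least 2-fold lower. The day 7 side rested on 89 cells. Among cells with fewer than 2 gate genes of any other class (427 and 57), Reg3b had a log2 fold of -1.03 against 2.69 in all, and Reg4 0.74 against -3.02.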

How the data were processed

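The values deposited by the authors are raw counts of UMIs for 32285 features in barcodes already called as cells. The authors used Cell Ranger 6.1.2, R 4.1.3, Seurat 4.1.1 and mm10 per the submitters' processing notes, and other settings are not given in the sources used here. Receptor (V(D)J) libraries were not analysed here. Samples were grouped by their labels, 1 library per group, so no p-value was computed. The cell classes and gene lists, and the genes of the gates, were chosen with earlier results of these data known. Barcodes needed at least 200 genes and at most 10% mitochondrial UMIs, and went to the class with the most of 8 gate genes detected, at least 2, with ties left out. UMIs were summed per class and library, divided by the class total (CPM), and compared with 10 CPM added before log2. Named genes were the 10 furthest in each direction in T cells, B cells and monocytes or macrophages and the 5 furthest elsewhere, plus members of 40 lists. They needed at least 50 CPM, 20 UMIs and 10 cells in the higher library and at least 1/3 of the highest class level there. That ranking left out gate genes, haemoglobin genes, mitochondrial genes, antigen receptor genes, genes of ribosomal proteins, Y-linked genes, Xist, Tsix and symbols of the Gm-number or Rik kind. Doublets were treated by leaving out ties, and as an alternative by removing the barcodes with the highest simulated-doublet scores at 0.8% per 1000 barcodes (556 and 367). Shares of cells with a UMI were repeated after thinning to 1000 UMIs, leaving out shallower cells. A count of 0 allows up to 3 counts. The comparison was tested on simulated data. Pla2g2a was not analysed here, and a few single-gene values are not reported here. Promoters came from RefSeq on GRCm38.p6. Alternatives covered scaling (TMM), pseudocount, filters, doublets, gate stringency, depth and denominator. Tools were Python 3.11.15, numpy 2.4.6, scipy 1.17.1, pandas 2.3.3, scikit-learn 1.9.0 and matplotlib 3.10.9.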

Additional observations from a re-analysis of the deposited data

Results flagged for a closer look

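The share of plasma cells moved oppositely between days 2 and 7 in the 2 arms. Its log2 ratio was 2.01 with depleted flora and -3.87 with intact flora, where it was 11.8% at day 2 and 0.809% at day 7. Fibroblasts or smooth muscle cells, which the CD45 sort would remove, had a log2 ratio of 0.90 with depleted flora, from 19 and 31 cells, and -9.62 with intact flora, from 14.8% and 0.0188% of cells. The list of type 1 cytokines and receptors in monocytes or macrophages had a median log2 fold of -1.03 with depleted flora. It was 2.24 over 6 measured members with intact flora. Ccl3, with 1412 and 731 CPM, and Ccl4, with 5107 and 2555 CPM, were within 2-fold with depleted flora. The list includes Ccl5, a T cell chemokine, and T cell gate genes in this class were lower at day 7 with depleted flora. What part T cell RNA had in the depleted-flora median was not tested. Each arm had 1 library per day, and the difference between the arms was not tested.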

How the results depend on the processing

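No paired analysis was possible because each group has 1 library. Over all alternatives, 62 values of class shares stayed within counting error and 9 moved beyond it. Changes of direction were counted where the value reported lay clear of 0. They were 3 list-median values over 35 pairs of list and class, and 14 single-gene values over 211 pairs of gene and class. A further 44 list-median values and 271 single-gene values moved beyond the tolerance, which was 0.3 in log2 for a list median and the counting interval widened by 0.1 for a gene, and 368 and 2284 did not. Log2 ratios of shares that moved were -0.25 for T cells over immune cells; -0.056 for T cells and -4.00 for epithelial cells at a mitochondrial limit of 5%; -0.37 for NK cells after thinning; 0.45 for T cells, 3.61 for B cells, 1.42 for monocytes or macrophages, 1.59 for neutrophils and -2.71 for epithelial cells without cells holding 2 gate genes of a second class. Genes at least 2-fold apart numbered 75 in T cells, 320 in NK cells, 747 in ILC2, 485 in B cells, 234 in plasma cells, 285 in monocytes or macrophages, 922 in dendritic cells, 2987 in neutrophils and 176 in epithelial cells. With a pseudocount of 1 CPM they numbered 139 in T cells, 1094 in NK cells, 1677 in ILC2, 1287 in B cells, 582 in plasma cells, 991 in monocytes or macrophages, 2002 in dendritic cells and 475 in epithelial cells. With a pseudocount of 50 CPM they numbered 13 in T cells, 17 in NK cells, 23 in ILC2, 34 in B cells, 126 in plasma cells, 44 in monocytes or macrophages, 53 in dendritic cells, 209 in neutrophils and 46 in epithelial cells. With totals without receptor, mitochondrial, ribosomal and haemoglobin genes they numbered 504 in NK cells, 1207 in ILC2, 822 in B cells and 477 in plasma cells. With a mean of per-cell CPM they numbered 528 in NK cells, 1153 in ILC2, 388 in plasma cells, 893 in monocytes or macrophages, 1983 in dendritic cells and 580 in epithelial cells. With a mitochondrial limit of 5% they numbered 302 in epithelial cells. With thinning to 1000 UMIs they numbered 2749 in NK cells, 4330 in ILC2, 1937 in B cells, 3125 in plasma cells, 2386 in monocytes or macrophages and 2964 in epithelial cells. With cells holding 2 gate genes of a second class left out, an alternative added after seeing the data, they numbered 1082 in NK cells, 2030 in ILC2, 1129 in B cells, 1066 in monocytes or macrophages and 442 in epithelial cells. Changed in direction (log2 fold) under TMM scaling was Xbp1 in plasma cells 0.16. Changed in direction (log2 fold) under a mean of per-cell CPM were Cst7 in monocytes or macrophages 0.41 and Lyz1 in monocytes or macrophages 0.12. Changed in direction (log2 fold) under the 5% mitochondrial limit were Ighm in plasma cells -0.061 and Ang4 in epithelial cells -1.43. Changed in direction (log2 fold) under removal of high doublet scores was MHC class II presentation in T cells -0.015. Changed in direction (log2 fold) under thinning was Xbp1 in plasma cells 0.18. Changed in direction (log2 fold) under the added alternative were Pclaf in B cells 0.91, cell cycle, DNA replication in B cells 0.46, Cst7 in monocytes or macrophages 1.01, Dnase1l3 in monocytes or macrophages 0.096, Cxcl9 in monocytes or macrophages 0.85, Slc40a1 in monocytes or macrophages -0.11, Reg4 in epithelial cells 0.74, Reg3b in epithelial cells -1.03, Ang4 in epithelial cells -1.51 and epithelial antimicrobial (background) in epithelial cells -0.64. A mean of per-cell CPM took higher calls from 32.1% to 20.1% in plasma cells and from 40.4% to 24.9% in monocytes or macrophages. TMM scaling shifted the median of all genes by 0.28 in plasma cells, 0.18 in neutrophils, 0.15 in dendritic cells and 0.11 in ILC2. The causes were not tested. Dendritic cells, neutrophils or plasma cells fell below 50 cells under some alternatives, which then gave no gene values for them. Day 7 cells were shallower, which limits genes of low level, as did the few neutrophils, dendritic cells and ILC2.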

Other observations

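Plasma cells had lower medians for several lists at day 7. Glycolysis and hypoxia genes had a median log2 fold of -0.68 over 11 measured members, nuclear-encoded oxidative phosphorylation genes -0.52 over 16 and MHC class I presentation genes -0.52 over 10, none of them past 2-fold, where the median over all genes of the class was -0.26. Of 15 measured tissue repair genes in monocytes or macrophages, 3 were at least 2-fold higher and 2 lower. Of all genes of that class, 1.4% were at least 2-fold higher and 2.07% lower. Areg was among the lower repair genes, with 182 and 76.5 CPM. Spp1, which encodes osteopontin, had 45.5 and 9.57 CPM. Mast cells, granule-bearing cells of the mucosa, numbered 35 at day 2 and 17 at day 7, a log2 ratio of shares of -0.85 (-1.78 to 0.03) over all kept cells and -1.14 (-2.07 to -0.27) over immune cells. Plasmacytoid dendritic cells, known as interferon producers, numbered 16 and 19, a log2 ratio of 0.44 over all kept cells whose interval included 0.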
